A study of Arabidopsis thaliana with 12 samples.

Results

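PER39 (AT4G11290), PER40 (AT4G16270) and PER57 (AT5G17820) are 3 class III peroxidase genes of Arabidopsis thaliana that the study links to the transcription factor UPB1. They were chosen by locus, and each is represented by 1 of the 22746 probe sets that are not array controls. The study picked these genes with these samples in hand, so their changes between genotypes are a description of how they behaved and not independent evidence for the link. All 3 passed the filter on dim probe sets and were tested.

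RNA was measured on Affymetrix ATH1 arrays from seedling roots of 6-day-old plants, cut under a microscope into a meristematic piece and an elongation piece. Wild-type Col-0 was set beside the upb1-1 mutant and beside 35S::UPB1-3YFP #2, a transgenic line that by its label carries upb1-1 too and is called OX-labelled here. That line is 1 transgenic line, and its transgene is driven by the 35S promoter, which is active in most plant cells. Every genotype and zone had 2 biological replicates of about 60 pooled roots, which gave 12 arrays in 6 groups, all in the Columbia-0 ecotype and on the same sucrose medium. The labels do not say how the replicates were grown apart, so the p-values measure the spread between these arrays.

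Class III peroxidases are secreted heme enzymes of plants that reduce hydrogen peroxide while oxidising phenolics and other compounds of the cell wall, and some of their reactions form reactive oxygen species instead. In the root tip, superoxide is prominent in the dividing zone and hydrogen peroxide where cells elongate and differentiate. UPB1, a basic helix-loop-helix protein, is known as a repressor of peroxidase genes that acts on this balance at the transition from division to elongation. The single roles of PER39, PER40 and PER57 beyond this family function are not described here.

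UPB1 itself gave signals of 528 to 1379 on the 4 Col-0 arrays, 8.53 to 16.8 on the upb1-1 arrays and 28.1 to 55.2 on the OX-labelled arrays. The upb1-1 label was therefore matched by a low UPB1 signal. All 4 OX-labelled arrays lay below every Col-0 array and above every upb1-1 array. Relative to upb1-1, UPB1 was higher in OX-labelled meristematic pieces by 0.98 on the log2(signal + 16) scale (limma adjusted p = 0.00548). In elongation pieces it was higher by 1.01 (limma adjusted p = 0.0113), with dim signals in both lines. No source used here tells if the transgene transcript holds the sequence this probe set reads, so the OX label is unchecked, and every direction below refers to the arrays as labelled. Another difference concerned the control probe sets of the arrays. The log2 ratio of 3' to 5' control signals in meristematic pieces averaged 2.22 for Col-0, 2.04 for upb1-1 and 4.17 for the OX-labelled line. In elongation pieces the averages were 3.93, 4.04 and 3.97 in the same order. What set this ratio was not tested. All other results are MAS5 signals on a linear scale, or differences on the scale of log2(signal + 16), and the median signal of an array was 50.8 to 67.6. Levels of different probe sets are not compared with each other.

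**Figure D1:**
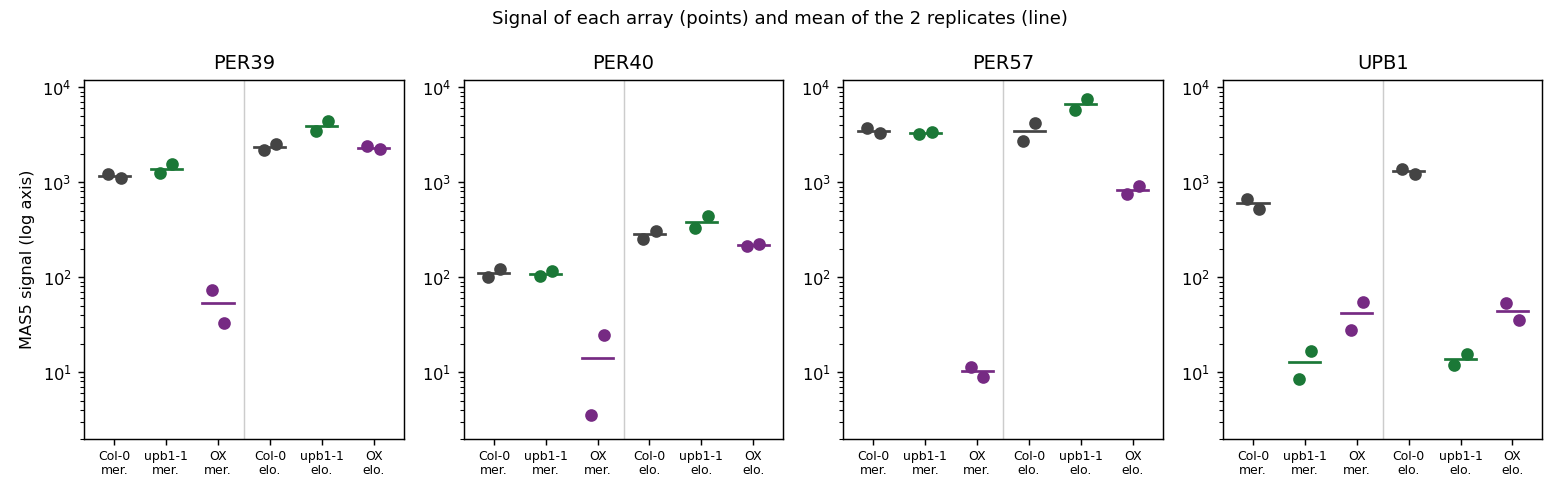
MAS5 signal (log axis) of PER39, PER40, PER57 and UPB1 on each of the 12 arrays; points are arrays, lines are means of 2 replicates, colours are genotypes, and mer. and elo. stand for the meristematic and elongation zones. The OX-labelled meristematic arrays are the lowest for all 3 peroxidases, while OX-labelled elongation arrays overlap Col-0 for PER39 and lie below it for PER40, PER57 and UPB1.

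In wild-type roots the 3 genes did not share 1 zone pattern. PER39 and PER40 were higher in the elongation zone, about 2-fold and 2.5-fold by mean signal, whereas PER57 stood at nearly the same level in both zones. Meristematic pieces of Col-0 gave PER39 signals of 1225 and 1113, and elongation pieces gave 2169.7 and 2509. For PER40 the meristematic signals were 99.9 and 121, and the elongation signals were 255 and 309.6. For both genes each elongation array lay above each meristematic array, a separation whose share among all tested probe sets was not counted. PER57 gave 3693 and 3269 in the meristematic zone and 2732 and 4159 in the elongation zone, so the zones overlapped and the spread was wider in the elongation pieces.

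The zone difference in Col-0 was 0.99 (log2, SE 0.24, limma adjusted p = 0.00425) for PER39 and 1.23 (SE 0.28, adjusted p = 0.00287) for PER40, and both rose towards the elongation zone. PER57 gave -0.04 with a 95% interval from -0.48 to 0.40 (adjusted p = 0.889), a sign that turned to 0.12 after median centring. Thus 2 of 3 genes were called higher, against 17.5% of all 15834 tested probe sets, and 22.8% were called lower. Median centring moved the median zone difference of all tested probe sets by 0.17 in Col-0, and the share of higher among called probe sets from 43.4% to 57.2%. The 3' to 5' control ratio was 2.22 in the meristematic and 3.93 in the elongation pieces of Col-0. The summed root hair markers, EXPA7 and EXPA18, averaged 844 and 295 there, and the 3 measured markers of dividing cells 754 and 318. The part of these shifts in the zone differences was not tested. The zone difference of UPB1 in Col-0 was 1.11 in the same direction (limma adjusted p = 0.00335).

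Other class III peroxidases were as varied between the Col-0 zones. The family has 73 listed genes, of which 70 are outside the UPB1-linked trio, 52 of these have a probe set named here, and 30 were tested. Of these 30, 7 were higher and 8 were lower in the elongation zone, beside 17.5% and 22.8% of all tested probe sets. Their median difference was -0.10, beside -0.06 for all tested probe sets. Both PER39 and PER40 therefore fell among the minority of the family called higher in elongating pieces.

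Loss of UPB1 left the 3 genes close to Col-0 in the meristematic zone. PER39 gave 1240.0 and 1543 on the upb1-1 meristematic arrays, both a little above the Col-0 pair. PER40 gave 103 and 116, within the Col-0 range. PER57 gave 3247 and 3412, which overlapped Col-0 as well. The differences were 0.24 for PER39 (95% interval -0.27 to 0.75), -0.01 for PER40 (-0.61 to 0.58) and -0.06 for PER57 (-0.50 to 0.38), and none of the 3 passed in limma (adjusted p = 1 for each when rounded). Across all probe sets 0.0379% were called in this comparison, and 264 had an unadjusted p below 0.05. The intervals reach to a change of about 0.75 upward for PER39, so a rise of that size lies within the error of 2 arrays a group.

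In the elongation zone the upb1-1 arrays were the highest of the whole series for all 3 genes. PER57 was about 1.93-fold and PER39 about 1.67-fold above Col-0 by mean signal, and both rose by the test, while PER40 was 1.36-fold above without passing. PER57 gave 5776 and 7546, against 2732 and 4159 in Col-0. PER39 gave 3428 and 4372, against 2169.7 and 2509. PER40 gave 327 and 439, against 255 and 309.6. In each case the lower upb1-1 array lay above the higher Col-0 array. Such separation of 2 against 2 arrays is no test, PER40 showed it without passing, and its share among all tested probe sets was not counted.

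PER57 rose by 0.97 (log2, SE 0.21, 95% interval 0.52 to 1.41, limma adjusted p = 0.00645) in upb1-1 elongation pieces and PER39 rose by 0.73 (SE 0.24, interval 0.22 to 1.23, adjusted p = 0.0457). PER40 gave 0.41 (SE 0.28, interval -0.18 to 1.01, adjusted p = 0.324), an interval that holds both no change and the value of PER39. Called higher were thus 2 of 3, beside 9.36% of all tested probe sets called higher and 9.45% called lower. The PER39 call was lost with a pseudocount of 1, no filter, no trend or only the arrays compared (limma adjusted p from 0.0762 to 0.0937), and the PER57 call with only the arrays compared (0.0593). Both calls also depended on single arrays. PER39 lost its call when either Col-0 array was left out (0.62 with adjusted p = 0.250 without replicate 1, and 0.83 with 0.0677 without replicate 2) or upb1-1 replicate 2 (0.55, 0.266), and PER57 without Col-0 replicate 1 (0.66, 0.106) or upb1-1 replicate 2 (0.77, 0.0666).

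**Figure D2:**
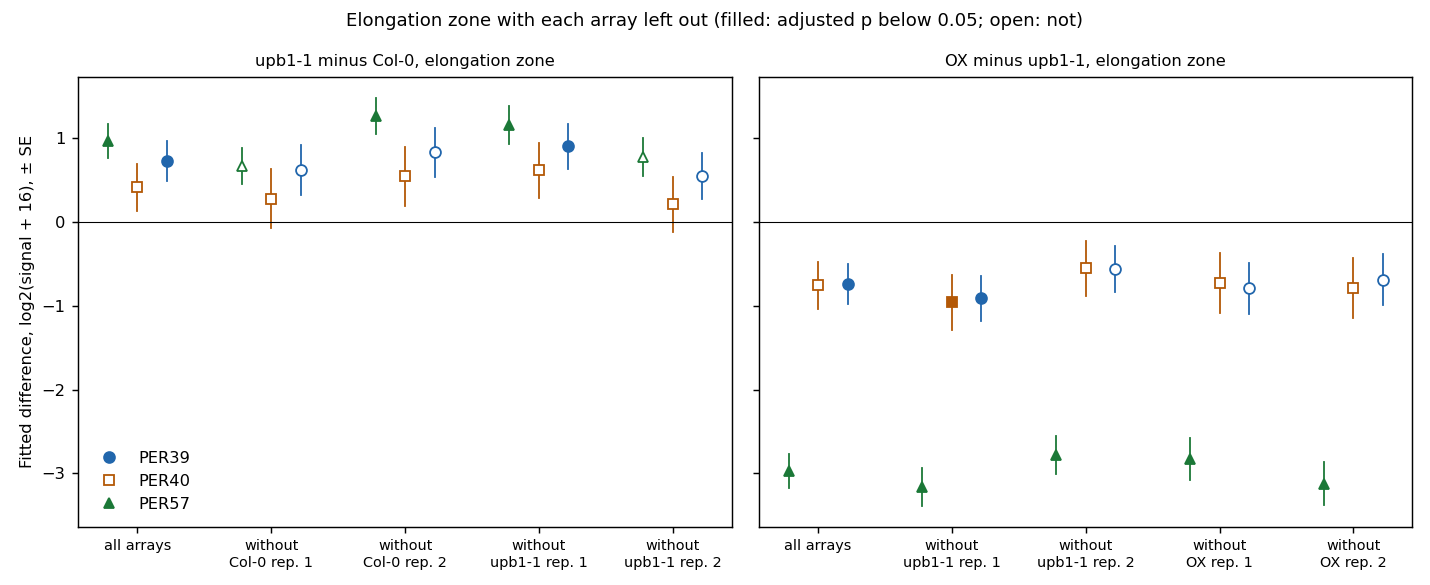
Fitted difference on the log2(signal + 16) scale with its SE for PER39, PER40 and PER57 in the elongation zone, for upb1-1 against Col-0 (left) and OX-labelled against upb1-1 (right), with all arrays and with each array of the groups compared left out. Filled symbols have an adjusted p below 0.05. Every value keeps its sign, and PER57 against upb1-1 stays filled throughout.

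Other genes moved with these rises. Of the 30 other class III peroxidases 10 rose and 1 fell in upb1-1 elongation pieces, and 19 did not pass. Of all tested probe sets, 9.36% were called higher and 9.45% lower. The median of the 30 was 0.20, beside -0.02 for all tested probe sets. PER35 rose by 5.10 and PER7 rose by 3.66, and PER42 fell by 0.68. Without Col-0 replicate 1 the number that rose was 5. The fall of PER42 did not pass without Col-0 replicate 1 or 2 or upb1-1 replicate 2, nor with no filter or with only the arrays compared.

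NADPH oxidases, the enzymes that make superoxide outside the cell, had 3 of 10 listed members with a probe set named here, and all 3 were tested. RBOHG rose by 1.64 (adjusted p = 0.00374) and RBOHE rose by 1.22 (adjusted p = 0.0152) in upb1-1 elongation pieces, and RBOHI gave 0.97 (adjusted p = 0.0894). The RBOHG call was lost without Col-0 replicate 1 or upb1-1 replicate 2. RBOHE did not pass without Col-0 replicate 1 or 2 or upb1-1 replicate 2, nor with only the arrays compared. No superoxide dismutase of the 7 listed has a probe set named here.

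Several, but not all, markers of cell types changed on the same arrays. Of 5 listed root hair markers 2 have a probe set named here, the expansin genes EXPA7 and EXPA18, and both rose in upb1-1 elongation pieces. Their summed signal was 206 to 383 on the Col-0 and 1741 to 3272 on the upb1-1 elongation arrays. Of 6 markers of dividing cells 3 have a probe set named here, the mitotic kinase genes AUR1 and AUR2 and the spindle checkpoint gene BUBR1. Their summed signal was 252 to 385 on Col-0 and 124 to 203 on upb1-1 elongation arrays. No measured marker was listed at 0, but a signal above 0 does not show that a marker was expressed. Of the 5 stem cell niche markers only BBM has a probe set named here. It gave 6.92 to 14.0 on Col-0 and 15.1 to 17.4 on upb1-1 elongation arrays. These signals lay below the 40th percentile of their arrays, and their difference of 0.30 (log2) did not pass. Of the 4 endodermal barrier markers only GSO1 has a probe set named here, at 185 to 190.2 on Col-0 and 342 to 475 on upb1-1 elongation arrays. None of the 3 root cap and 4 xylem markers has a probe set named here. The part of these shifts in the PER57 and PER39 rises was not tested, and in pieces of tissue fewer cells of a type cannot be told apart from less RNA per cell.

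Whether the upb1-1 effect differed between zones was tested directly. The zone difference in upb1-1 exceeded that in Col-0 by 1.03 (log2, SE 0.29) for PER57, which did not pass (adjusted p = 0.0786), by 0.48 (SE 0.34, adjusted p = 0.462) for PER39 and by 0.42 (SE 0.40, adjusted p = 0.604) for PER40. None of the 3 was called, where 2.27% of all probe sets were and 3042 had an unadjusted p below 0.05. PER57 passed without Col-0 elongation replicate 2 (1.33, adjusted p = 0.0219) or upb1-1 elongation replicate 1 (1.22, adjusted p = 0.013). Within upb1-1, all 3 were higher in the elongation zone, by 1.47 for PER39, 1.66 for PER40 and 0.98 for PER57 (adjusted p = 0.000132, 0.000187 and 0.00107), where 24.1% of all tested probe sets were called higher. Median centring moved the share of higher among called probe sets in upb1-1 from 45.9% to 58.0%. From the meristematic to the elongation pieces of upb1-1, the 3' to 5' ratio went from 2.04 to 4.04, the root hair sum from 797 to 2506 and the dividing cell sum from 717 to 163. Their part in the zone differences was not tested.

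On the OX-labelled meristematic arrays all 3 peroxidases were far below every other group. PER57 had a mean signal of 10.2 ± 1.71 (SD, n = 2), against 3481 ± 299.8 in Col-0. PER39 had 53.3 ± 28.7, against 1169 ± 79.3, and PER40 14.1 ± 14.9, against 111 ± 15.2. The single arrays gave 11.4 and 8.99 for PER57, 73.6 and 33.0 for PER39, and 3.52 and 24.6 for PER40. The PER57 signals were above 20.6% and 19.2% of the probe sets on their arrays, and above 98.3% and 97.9% on the Col-0 meristematic arrays. Replicates were close for PER57 and wider apart for PER39 and PER40, and the groups did not overlap for any of the 3. How many of all tested probe sets separate in this way was not counted.

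Against Col-0, PER57 fell by 7.06 (log2, SE 0.21, limma adjusted p = 3e-11), PER39 fell by 4.16 (SE 0.24, adjusted p = 6.56e-09) and PER40 fell by 2.16 (SE 0.28, adjusted p = 2.01e-05). Against upb1-1, the stated background of the line, the falls were alike: PER57 fell by 7.00 (adjusted p = 3.41e-11), PER39 fell by 4.40 (adjusted p = 3.18e-09) and PER40 fell by 2.15 (adjusted p = 1.95e-05). These comparisons share the OX-labelled arrays. No detection calls were used, and the added 16 limits how far a probe set can fall, most of all one that is dim in Col-0. The falls from Col-0 were therefore 8.29 for PER57, 4.54 for PER39 and 3.37 for PER40 with 1 added instead of 16, and 5.58, 3.41 and 1.17 with 64 added. All 3 calls held at either value, and the sizes of the 3 falls are not compared with each other.

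These falls lie on arrays where falls were common and the 3' to 5' control ratio differed. All 3 were called lower, beside 23.5% of all tested probe sets against Col-0 and 24.5% against upb1-1, where 26.0% and 27.5% were called higher. Of the 30 other class III peroxidases 18 fell and 2 rose against Col-0, with a median of -0.81 beside 0.10 for all tested probe sets. Against upb1-1 the counts were also 18 and 2, with a median of -0.85 beside 0.11. The 2 rises against Col-0 became 0 or 1 when any 1 of the 4 arrays was left out, and those against upb1-1 became 0 or 1 without either upb1-1 array or OX-labelled replicate 2. Of the 3 NADPH oxidase genes RBOHG fell by 2.18 and RBOHE fell by 1.58 against Col-0, and by 1.63 and 1.04 against upb1-1, where RBOHE did not pass without OX-labelled replicate 1 or upb1-1 replicate 2.

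The 3' to 5' control ratio was 4.17 on these OX-labelled arrays, against 2.22 and 2.04 on the Col-0 and upb1-1 meristematic arrays. The summed signal of the 2 root hair markers was 15.4 to 30.6 there, against 789 to 899 in Col-0 and 747 to 846 in upb1-1. That of the 3 markers of dividing cells was 1308 to 1412, against 731 to 778 and 706 to 728. BBM gave 102 to 116, against 35.4 to 47.9 and 55.2 to 56.0, and GSO1 28.3 to 44.6, against 170.0 to 184 and 160 to 197. Their part in the peroxidase falls was not tested. EXPA7 at 1.91 to 23.1 and EXPA18 at 7.52 to 13.5 lay below the 40th percentile of the OX-labelled meristematic arrays (34.7 to 36.5). Signals above 0 therefore do not show that these markers were expressed there.

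In the elongation zone, PER57 was the only 1 of the 3 genes called lower on the OX-labelled arrays than in Col-0. The 3' to 5' control ratio averaged 3.97 on these arrays and 3.93 in Col-0, and its part was not tested. PER57 stood at about 24.1% of its Col-0 signal, while PER39 was at 99.0% and PER40 at 77.3%. PER57 gave 745 and 919 on the OX-labelled elongation arrays, against 2732 and 4159 in Col-0. PER39 gave 2399 and 2234, inside the Col-0 range of 2169.7 to 2509. PER40 gave 213 and 223, both below the Col-0 values of 255 and 309.6, so its groups did not overlap either.

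PER57 fell by 2.01 (log2, SE 0.21, 95% interval -2.45 to -1.56, limma adjusted p = 6.86e-05) relative to Col-0 and kept its call under each alternative that was run. PER39 gave -0.01 (interval -0.52 to 0.50, adjusted p = 0.982) and PER40 gave -0.34 (interval -0.94 to 0.25, adjusted p = 0.452). For PER39 the sign turned to 0.03 after quantile normalization or median centring. Called lower was 1 of 3, beside 7.46% of all tested probe sets, and 6.64% were called higher. The interval of PER57 overlapped neither of the others, and the difference between genes was not tested.

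Relative to upb1-1, the OX-labelled elongation arrays were lower for each gene. The upb1-1 arrays here are those that were compared with Col-0 above, so the 2 comparisons are not independent. PER57 fell by 2.97 (SE 0.21, limma adjusted p = 2.83e-07), to 12.5% of the upb1-1 signal. PER39 fell by 0.74 (SE 0.24, adjusted p = 0.0353), to 59.4% of it. PER40 gave -0.76 (SE 0.28, adjusted p = 0.0613), at 56.9%, which did not pass although the groups did not overlap. PER39 and PER40 thus stood at nearly the same difference on either side of the threshold. Called lower were 2 of 3, beside 12.6% of all tested probe sets, and 11.6% were called higher. The PER39 call was lost without upb1-1 replicate 2 (-0.56, adjusted p = 0.215), OX-labelled replicate 1 (-0.79, 0.0968) or OX-labelled replicate 2 (-0.69, 0.141), and PER40 passed without upb1-1 replicate 1 (-0.96, 0.0353).

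**Figure D3:**
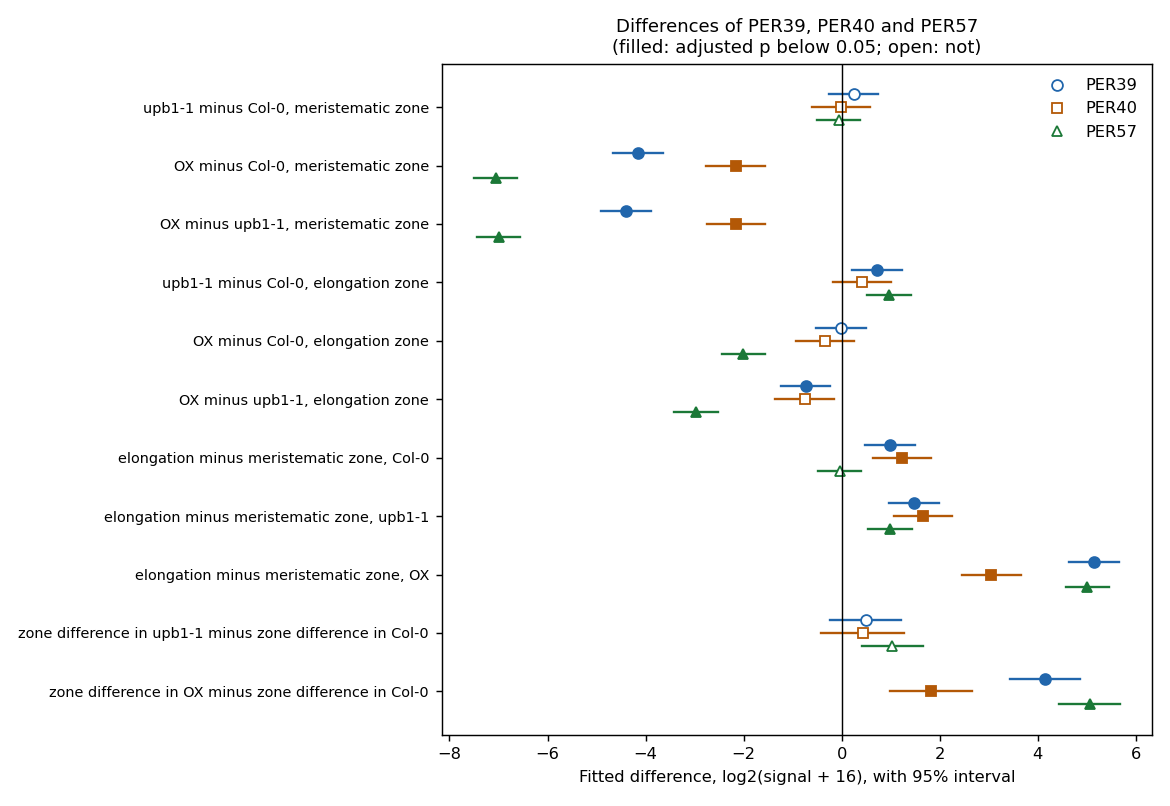
Fitted differences of PER39, PER40 and PER57 in each of the 11 comparisons on the log2(signal + 16) scale, with 95% intervals from limma. Filled symbols have an adjusted p below 0.05 and open symbols do not. The differences are near 0 for upb1-1 in the meristematic zone, and PER57 stands apart from the others where OX-labelled is compared in the elongation zone.

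The rest of the family on the same elongation arrays gave 9 falls and no rise among 30 tested relative to Col-0. Of all tested probe sets, 7.46% were called lower and 6.64% higher. The median of the 30 was -0.30, beside 0.02 for all tested probe sets. PER7 fell by 2.51 and PER44 fell by 2.05. PER44 signals were 1.83 to 9.02 on the OX-labelled and 51.0 to 98.4 on the Col-0 elongation arrays. The pseudocount therefore limits the size of the PER44 fall, and it is not compared with that of PER57. The 9 falls were 4 without Col-0 replicate 2 and 3 without OX-labelled replicate 1. Relative to upb1-1, 13 fell and none rose by limma, with a median of -0.62 beside 0.07, and 1 rose with no trend in the prior or without upb1-1 replicate 1. The lowest values in that comparison were -6.17 for PER7 and -5.41 for PER44, and the PER44 value rests on the same dim OX-labelled signals.

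None of the 3 NADPH oxidase genes passed on the OX-labelled elongation arrays relative to Col-0. Relative to upb1-1 each fell, RBOHG by 2.03, RBOHE by 1.46 and RBOHI by 1.31, on the same upb1-1 arrays as in the comparison with Col-0. The call of RBOHI was lost without upb1-1 replicate 2 or OX-labelled replicate 1 and with only the arrays compared, and that of RBOHE without upb1-1 replicate 2. The root hair markers summed to 39.3 to 43.1 on the OX-labelled elongation arrays, below the 206 to 383 of Col-0, and the markers of dividing cells to 236 to 251, close to the lower Col-0 value of 252. BBM lay at 1.47 to 3.61 and GSO1 at 98.7 to 129 there. Their part in the PER57 fall was not tested.

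**Figure D4:**
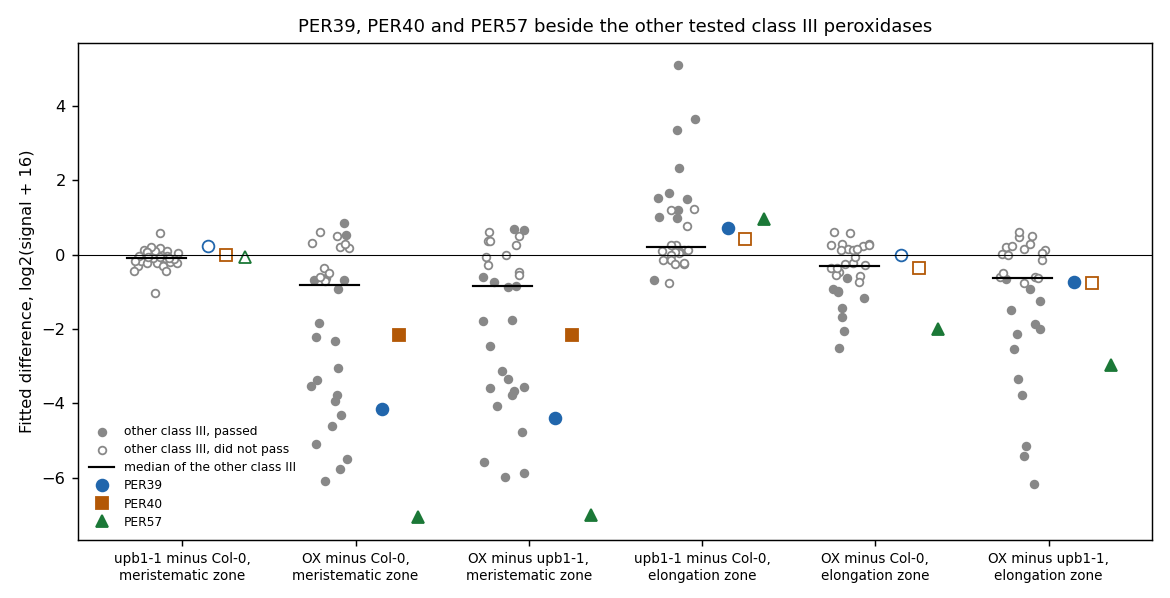
Fitted differences on the log2(signal + 16) scale of the 30 other tested class III peroxidases (grey) and of PER39, PER40 and PER57 (coloured) in the 6 comparisons between genotypes; filled symbols have an adjusted p below 0.05 and black lines are medians of the 30. PER39, PER40 and PER57 lie below the median of the 30 in the 2 meristematic comparisons with OX-labelled roots, where dim signals have no order, and in the elongation zone of upb1-1 several other members exceed all 3.

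Within the OX-labelled line all 3 genes were higher in the elongation zone. PER39 differed by 5.14 (log2, adjusted p = 1.38e-09), PER57 by 5.01 (adjusted p = 4.13e-10) and PER40 by 3.05 (adjusted p = 6.55e-07), where 23.9% of all tested probe sets were called higher. Median centring moved the share of higher among called probe sets here from 44.7% to 55.9%. Compared with Col-0, this zone difference was larger by 5.05 for PER57 (SE 0.29, adjusted p = 2.88e-07), by 4.15 for PER39 (SE 0.34, adjusted p = 2.11e-06) and by 1.82 for PER40 (SE 0.40, adjusted p = 0.00452). These sizes rest on the dim meristematic signals: they were 6.26, 4.53 and 3.00 with 1 added instead of 16, and 3.63, 3.40 and 0.88 with 64 added, in the same order. All 3 were called, beside 13.2% of all tested probe sets called in that direction. The 3' to 5' ratio of the OX-labelled arrays was 4.17 and 3.97 in the 2 zones, whereas that of Col-0 was 2.22 and 3.93, and its part in this contrast was not tested.

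Ordered by level, the 6 groups fell into steps that differed by gene. For PER39 the upb1-1 elongation group was highest. It was followed by Col-0 and OX-labelled elongation, which did not differ beyond their spread, then by upb1-1 and Col-0 meristematic, which lay 0.24 apart, about 1 SE of a difference, and last by OX-labelled meristematic. For PER40 the order of the elongation groups was upb1-1, Col-0 and OX-labelled, with gaps of 0.41 and 0.34 that were under 2 SE, and the Col-0 and upb1-1 meristematic groups overlapped. For PER57 the upb1-1 elongation group led, the Col-0 meristematic, Col-0 elongation and upb1-1 meristematic groups overlapped, and both OX-labelled groups came last, 5.01 apart.

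The genes whose signals over the 12 arrays were most like each member were found by Pearson correlation of log2(signal + 16) among tested probe sets with 1 named gene. For PER39 these were AT5G44530, AT3G07010, AT5G03610, CSLA03 and AT1G05320, with r from 0.995 down to 0.990. For PER40 they were AT1G09750, AT4G17100, AT3G11590, AT1G08590 and AT3G43270, with r from 0.995 to 0.982. For PER57 they were AT3G46280, AT1G78260, AT1G72230, AT4G17280 and AT3G05920, with r from 0.993 to 0.988. Such likeness was common: 250, 197 and 209 tested probe sets reached r of 0.95 with PER39, PER40 and PER57. All of these values share the low OX-labelled meristematic arrays, and none of the top 5 of PER39 and 1 each for PER40 and PER57 were also in the top 5 over the 10 arrays without them.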

How the data were processed

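The deposited values are probe set signal intensities on a linear scale, 1 column per ATH1 array, which the authors made with MAS5 (version not stated), per the submitters' processing notes. RNA was labelled after two-cycle amplification, per the labels' protocols. The values show the same trimmed mean, about 250.03, on each array. Of 22810 probe sets, 64 controls were left out. Signals were tested as log2(signal + 16) with no further scaling. The 15834 probe sets at or above the 40th percentile of an array on at least 2 arrays were fitted with limma 3.58.1 in R 4.3.3 (6 group means, all 12 arrays, eBayes with trend, two-sided), and checked on simulated data. Adjusted p-values are Benjamini-Hochberg over all 15834, and the threshold was 0.05. The number of arrays limits the precision.

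Names came from the platform annotation (14016 probe sets; 8906 tested ones with 1 gene, 328 with several, 6600 unnamed here) and a TAIR10.1 gene table used for names only. For genes with several probe sets, the brightest stood for the gene. The 3 genes and all lists were chosen with earlier results of these data known. Named are the 3 genes, UPB1, 5 genes most like each, up to 2 rises and 2 falls of other class III peroxidases per genotype comparison in the elongation zone, NADPH oxidases that passed, and measured markers; RBOHI where it did not pass is named outside this rule. Promoters and proteins were not analysed here. Alternatives were other pseudocounts (1 and 64), no filter, quantile normalization, median centring, no trend, only the arrays compared, the replicate number as a block, and leaving out single arrays.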

Additional observations from a re-analysis of the deposited data

Results flagged for a closer look

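For each of the 3 genes the difference between zones was not the same in the OX-labelled line and in Col-0, by the interaction term in limma. The zone difference was larger in the OX-labelled line by 4.15 for PER39, by 1.82 for PER40 and by 5.05 for PER57 (log2). Both OX-labelled meristematic arrays lay below all 10 other arrays for each gene. The share of all tested probe sets for which this holds was not counted. The OX-labelled meristematic arrays also had the 3' to 5' control ratio of 4.17 that sets them apart from the Col-0 (2.22) and upb1-1 (2.04) meristematic arrays, and the part of that ratio was not tested.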

How the results depend on the processing

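Of the 33 results on single genes, those of the meristematic OX-labelled comparisons, of the zones within upb1-1 and the OX-labelled line, and the OX-labelled interaction kept direction and call under every alternative run. PER39 in upb1-1 against Col-0, elongation zone, did not pass with a pseudocount of 1 (0.73, adjusted p = 0.0937), no filter (0.73, 0.0762), no trend (0.73, 0.0836) or only the arrays compared (0.73, 0.0931), nor did PER57 with only those arrays (0.97, 0.0593). PER39 in OX-labelled against upb1-1, elongation zone, did not pass in the same settings (-0.74 in each, 0.0767, 0.0600, 0.0672 and 0.0545). PER40 in that comparison passed with a pseudocount of 64 (-0.65, 0.0112), the replicate block (-0.76, 0.0277) and, chosen after seeing the data, without both OX-labelled meristematic arrays (-0.76, 0.0164). PER40 between Col-0 zones did not pass with a pseudocount of 1 (1.34, 0.0682). Signs turned only where the difference was near 0: PER39 in OX-labelled against Col-0, elongation zone, gave 0.0272 after quantile normalization and 0.0318 after median centring, and PER57 between Col-0 zones 0.12 after median centring. With single arrays left out, upb1-1 against Col-0 in the elongation zone ran from 0.55 to 0.90 for PER39 and from 0.66 to 1.27 for PER57. OX-labelled against upb1-1 there ran from -0.91 to -0.56 for PER39 and from -0.96 to -0.55 for PER40. OX-labelled against Col-0 there ran from -0.12 to 0.0930 for PER39, and the upb1-1 interaction from 0.73 to 1.33 for PER57. The meristematic upb1-1 difference ran from -0.13 to 0.11 for PER40 and from -0.15 to 0.0262 for PER57, and PER57 between Col-0 zones from -0.34 to 0.26. The cause of these changes was not tested. The number of probe sets called moved more widely. In upb1-1 against Col-0, elongation zone, 2979 became 757 with only the arrays compared and 531 to 4745 with 1 array left out, and in the upb1-1 interaction 359 became 118 to 557 under other settings and 59 to 2403. OX-labelled against upb1-1, elongation zone, had 3828, 1866 with only the arrays compared and 1758 to 2484 without upb1-1 replicate 2 or an OX-labelled array. OX-labelled against Col-0, elongation zone, had 2234, then 905 without Col-0 replicate 1 and 781 without OX-labelled replicate 1. The meristematic upb1-1 comparison had 6, 16 with only the arrays compared and 3 in 3 of the 4 fits with 1 array left out. Col-0 zones had 6382, and 4015 without Col-0 meristematic replicate 1; the OX-labelled interaction had 3803, and 2361 and 2489 without a Col-0 meristematic array. Whether replicate numbers pair these arrays could not be settled. Replicate deviations correlated above 0.1 for 2 of 15 pairs of groups (range -0.15 to 0.28), highest for Col-0 and upb1-1 elongation. With 2 arrays a group, this cannot show that the zones of a replicate are independent. The block changed only the PER40 call named above. With OX-labelled elongation numbers crossed, the block gave 2484 calls against Col-0, beside 2315 uncrossed and 2234 without it.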

Other observations

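Without the 2 OX-labelled meristematic arrays, PER39 and PER40 still followed each other over the remaining 10 arrays (Pearson's r of 0.96, and 0.937 over all 12), while PER57 did not follow PER39 (0.181, and 0.915 over all 12) or PER40 (0.192, and 0.837). The arrays of a group share a genotype and zone, so these coefficients describe the group pattern and carry no test. Over those 10 arrays the genes most like PER39 were AT3G43960, UGT71B1, AT1G29120, ATMPK8 and AT2G21830. Those most like PER40 were THE1, a receptor kinase that senses the state of the cell wall, AT1G56700, AT4G17100, AT1G51850 and EXPA8, an expansin. Those most like PER57 were AT5G01210, LEP, AT1G78260, AT4G22460 and AT5G44020. At r of 0.95 or more there were 207 probe sets with PER39, 324 with PER40 and 34 with PER57. This choice of arrays was made after seeing the data.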
